A study of Drosophila melanogaster with 10 samples.

Results

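Transcripts of 10 Drosophila genes tied to protein modification in heterochromatin were examined: egg, wde, G9a, Hmt4-20, Su(var)3-3, HDAC1, Sirt1, JIL-1, Su(var)2-10 and E(var)3-9. They encode enzymes that modify histones or chromatin proteins, apart from the cofactor gene wde and the zinc finger protein gene E(var)3-9. A gene was measured where the platform annotation names a probe set for it alone. This held for 8 of the 10 genes, with 9 of the 18769 probe sets tested, since Su(var)2-10 has 2. The methyltransferase genes egg and G9a have no probe set named for them here and were not analysed.

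The samples were 10 Affymetrix arrays in 4 groups. Kc cells, a cell line of embryonic origin with properties of blood cells, received dsRNA against the linker histone H1 (2 arrays) or, as the control, against GFP (2 arrays), a sequence foreign to the fly. Per the sample labels this was done for 1 hour without serum on days 0, 2 and 4, in cells kept at 25 °C, with RNA taken on day 6, although the series record speaks of a single treatment. Salivary glands, whose large polytene cells secrete the larval glue, came from flies in which Tub-Gal4, a driver active in most tissues, expressed an RNAi construct against H1 (3 arrays) or, as the control, against nau (3 arrays), a gene of muscle development. Both gland groups therefore carried the driver and a construct, from crosses kept at 18 °C and raised at 29 °C from the embryo on. The labels give no age or sex of the larvae. They do not state that replicate arrays are separate cultures or animals, so the spread behind the p-values can be technical.

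Heterochromatin is the compact part of the genome, rich in repeats, in which histone H3 is methylated on lysine 9 and bound by HP1. Its formation calls for enzymes that strip marks of active chromatin, deacetylases and the demethylase Su(var)3-3 among them, before methyltransferases add H3K9 and H4K20 methylation. The kinase JIL-1 acts on the opposite side: it phosphorylates H3 on serine 10 in interphase chromatin, and in flies its loss lets heterochromatic marks spread along polytene chromosomes.

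All values are log2 of the deposited intensity, and array medians lay between 4.11 and 4.31. The level of background was read from 17 control probe sets that match no fly transcript, whose 95th percentile was 3.55, and each of the 9 probe sets lay above it on all 10 arrays. The His1 genes have no named probe set here, and the loss of H1 itself was not measured. The transcript of nau was 3.53, 3.53 and 3.36 in the glands labelled H1 RNAi and 6.02, 5.54 and 5.50 in the glands labelled nau RNAi. Its signal was thus higher in the group that should be depleted of it, and whether RNA of the construct adds to that signal was not tested, so gland directions refer to the labels. Three-prime minus five-prime signal, which grows as RNA degrades, was 2.53 ± 0.09 (SD, n = 3) in glands labelled H1 RNAi and 2.13 ± 0.05 (n = 3) in glands labelled nau RNAi for GAPDH, 2.48 ± 0.07 and 2.17 ± 0.09 for eIF-4a, and 2.76 ± 0.10 and 2.77 ± 0.19 for actin. The part of RNA quality in the gland results was not tested.

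In salivary glands, transcripts of the H3S10 kinase JIL-1, the deacetylase Sirt1, the SUMO ligase Su(var)2-10, the H4K20 methyltransferase Hmt4-20 and the methyltransferase cofactor wde were lower under H1 RNAi. The falls ran from 3.69-fold for JIL-1 to 1.39-fold for wde, with 1.20-fold for the weaker probe set of Su(var)2-10. The test was not passed by HDAC1, Su(var)3-3 or E(var)3-9, nor by any of the 8 genes in Kc cells. The gland and Kc effects differed by a direct test for the 5 genes that fell in glands, for Su(var)2-10 by probe set A alone and for wde with a call that was lost without either of 2 Kc arrays.

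**Figure D1:**
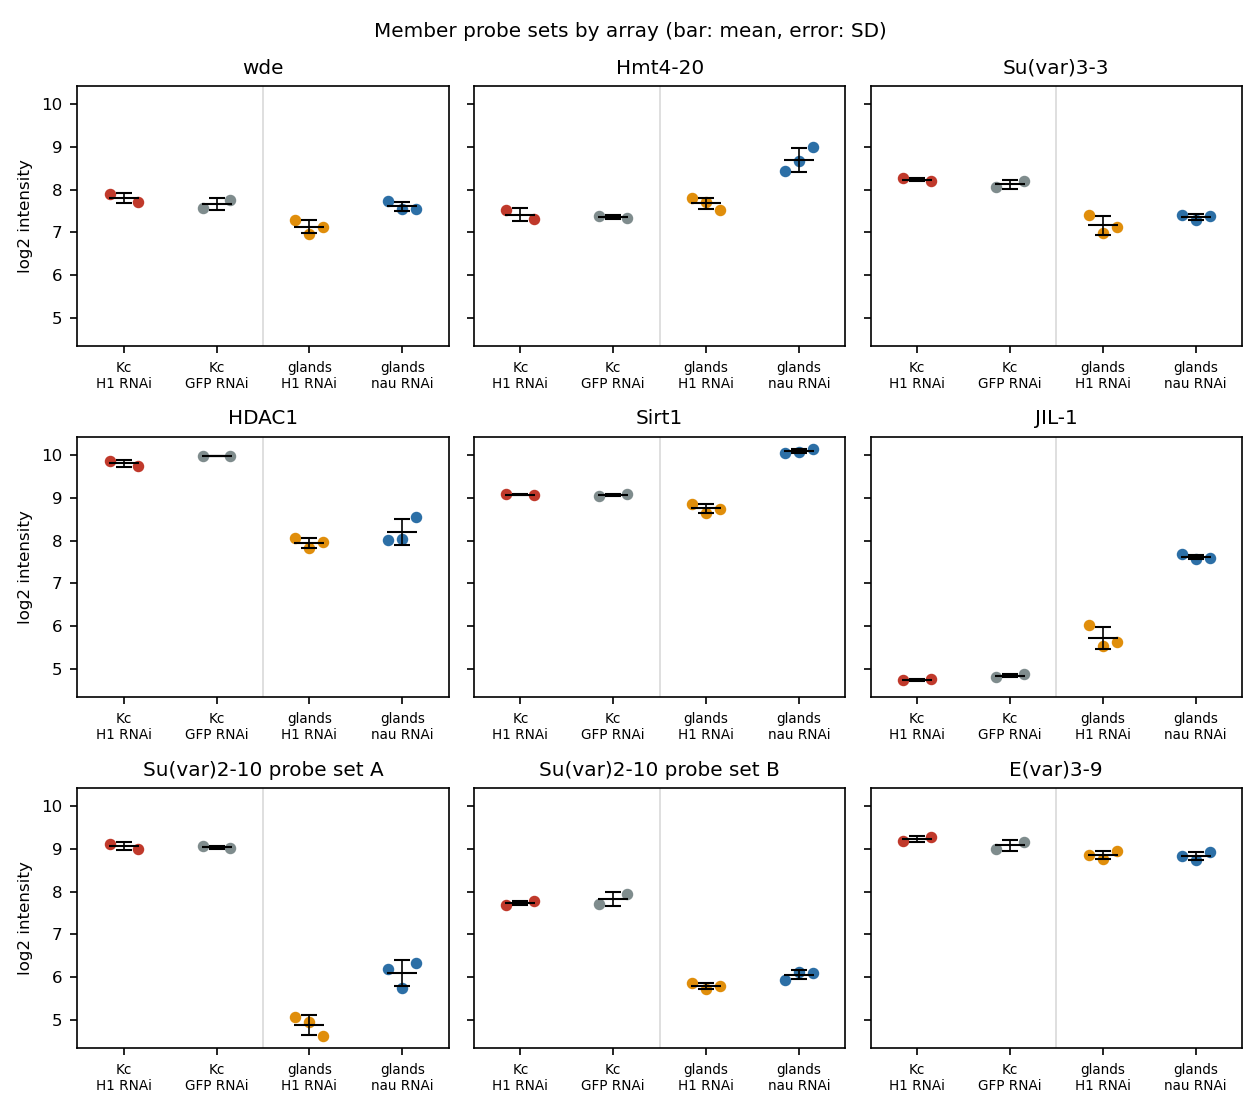
Log2 intensity (vertical axis) of each probe set in every array, by group, with the group mean as a bar and the SD as the error. JIL-1, Sirt1, Hmt4-20, wde and both Su(var)2-10 probe sets have all 3 glands labelled H1 RNAi below all 3 glands labelled nau RNAi, while no Kc pair of groups passed the test.

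Across the gland comparison, limma called 6 of the 9 probe sets lower and 0 higher at a Benjamini-Hochberg adjusted p under 0.05, which stands for 5 of the 8 genes. In glands 40.7% of all probe sets were called, 21.9% lower and 18.8% higher, so single calls are common here and the count has to be read against that share. The median log2 change of the 9 probe sets was -0.48, beside -0.08 over all probe sets tested. All 3 arrays labelled H1 RNAi lay under all 3 labelled nau RNAi for 6 of the 9 probe sets and the reverse held for none, beside 49.0% of all probe sets with separate groups in either direction.

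Of the H3K9 methyltransferases in the set only a cofactor was measured. Windei, the product of wde, binds the SETDB1-type enzyme encoded by egg and is needed for its activity in the fly. Its signal was 7.29, 6.97 and 7.14 in the glands labelled H1 RNAi, against 7.73, 7.55 and 7.56 in those labelled nau RNAi. The groups did not overlap, and wde fell by 0.48 on the log2 scale (standard error 0.108, adjusted p = 0.00584). In Kc cells it was 7.90 and 7.72 with H1 RNAi and 7.56 and 7.76 with GFP RNAi, and these overlapped (log2 change 0.15, 95% interval -0.15 to 0.45, adjusted p = 0.756).

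Hmt4-20, the fly Suv4-20 enzyme, adds further methyl groups to H4K20 and is the only methyltransferase gene of the set that was measured. The glands labelled H1 RNAi had 7.80, 7.71 and 7.53, and those labelled nau RNAi had 8.43, 8.66 and 8.99. The highest array labelled H1 RNAi thus stayed under the lowest labelled nau RNAi, and the nau arrays spread more widely. The log2 change was -1.01 (standard error 0.14, 2.02-fold, adjusted p = 0.000289), and 4.46% of all probe sets had a lower change. Kc cells held 7.52 and 7.31 with H1 RNAi and 7.39 and 7.33 with GFP RNAi, which overlapped (0.06, 95% interval -0.33 to 0.44, adjusted p = 0.969).

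The demethylase Su(var)3-3, the fly LSD1, removes methyl groups from H3K4 ahead of H3K9 methylation. Its probe set is of the kind whose probes can match more than 1 transcript. It had 7.41, 6.98 and 7.12 in the glands labelled H1 RNAi and 7.41, 7.29 and 7.39 in the glands labelled nau RNAi. Array a labelled H1 RNAi lay within the nau range and the other two below it, and the test was not passed (log2 change -0.20, 95% interval -0.45 to 0.06, adjusted p = 0.198). It was called lower without that array (-0.31, adjusted p = 0.0308) and after quantile normalization (-0.35, adjusted p = 0.0205), whereas without array b labelled H1 RNAi the change was -0.10 (adjusted p = 0.516). Both Kc arrays with H1 RNAi, 8.27 and 8.20, were above both with GFP RNAi, 8.05 and 8.19, by less than the test can call (0.11, 95% interval -0.20 to 0.42, adjusted p = 0.855).

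Of the deacetylases, Sirt1, which uses NAD+ to deacetylate histones and other proteins, had 8.86, 8.64 and 8.75 in the glands labelled H1 RNAi, against 10.05, 10.07 and 10.14 in those labelled nau RNAi. No array of one group came near the other, and both groups were tight, with SDs of 0.11 and 0.05 (n = 3 each). Sirt1 fell by 1.34 on the log2 scale (standard error 0.0808, 2.52-fold, adjusted p = 1.24e-06), the smallest adjusted p among the 9 probe sets. HDAC1, the Rpd3 enzyme of the Sin3 and NuRD corepressor complexes, had 8.06, 7.83 and 7.97 under H1 RNAi and 8.02, 8.04 and 8.55 under nau RNAi. These overlapped, with array c labelled nau RNAi apart from its group, and the change of -0.26 did not pass (95% interval -0.57 to 0.06, adjusted p = 0.176). Without that array it was -0.08 (adjusted p = 0.526).

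In Kc cells the deacetylases stood close to their control. Sirt1 was 9.08 and 9.06 with H1 RNAi and 9.04 and 9.08 with GFP RNAi, and these overlapped (log2 change 0.01, 95% interval -0.21 to 0.23, adjusted p = 0.99). HDAC1 was 9.86 and 9.74 with H1 RNAi and 9.97 in both arrays with GFP RNAi. The H1 arrays were lower without overlap, and the change of -0.17 did not pass (95% interval -0.56 to 0.22, adjusted p = 0.807).

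JIL-1 had the largest fall of the 9 probe sets. It was 6.02, 5.55 and 5.63 in the glands labelled H1 RNAi, against 7.68, 7.57 and 7.60 in the glands labelled nau RNAi. The nau arrays were close together and every H1 array was well under them. The log2 change was -1.89 (standard error 0.118, 3.69-fold, adjusted p = 1.58e-06), and 1.17% of all probe sets had a lower change. In Kc cells JIL-1 was 4.74 and 4.77 with H1 RNAi and 4.82 and 4.88 with GFP RNAi. The H1 arrays were lower by a margin within the error of the fit (-0.10, 95% interval -0.42 to 0.23, adjusted p = 0.899).

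Su(var)2-10, the fly PIAS protein, attaches SUMO to chromatin proteins and in flies helps to bring egg and wde to their targets. Its probe sets, 1632783_a_at (A) and 1627362_a_at (B), moved by unequal amounts in glands. Probe set A had 5.06, 4.95 and 4.62 in the glands labelled H1 RNAi, against 6.19, 5.76 and 6.34 in those labelled nau RNAi, a log2 change of -1.22 (standard error 0.16, 2.32-fold, adjusted p = 0.000202). The values of A under H1 RNAi lay near the highest control probe set (4.08), which limits what its change can measure. Probe set B had 5.86, 5.72 and 5.79 under H1 RNAi, against 5.93, 6.13 and 6.10 under nau RNAi. For both probe sets all 3 H1 arrays were under all 3 nau arrays, but for B the gap between the nearest arrays was small and the change was -0.27 (standard error 0.0933, 1.20-fold, adjusted p = 0.0462).

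The call of probe set B was fragile. It was lost, with adjusted p between 0.0531 and 0.127, when Kc H1 array a or b, any 1 of the 3 arrays labelled H1 RNAi, or array b or c labelled nau RNAi was left out. Quantile normalization gave it a change of -0.70 (adjusted p = 0.000275), so its size also depended on the scaling.

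The unequal change can be read from the difference A minus B within each array, which was -0.80, -0.77 and -1.17 in the glands labelled H1 RNAi and 0.25, -0.37 and 0.23 in those labelled nau RNAi. The groups did not overlap. They differed by -0.95 on average (exact two-sided permutation test, p = 0.1, the smallest that 3 against 3 arrays allow). In Kc cells the difference was 1.43 and 1.22 with H1 RNAi and 1.35 and 1.07 with GFP RNAi, which overlapped (exact permutation p = 0.667, where 0.333 is the smallest possible). The low signal of A in the glands labelled H1 RNAi, near the highest control probe set (4.08), also limits the gland comparison. Which transcripts of the gene each probe set reads is not given in the sources used here.

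**Figure D2:**
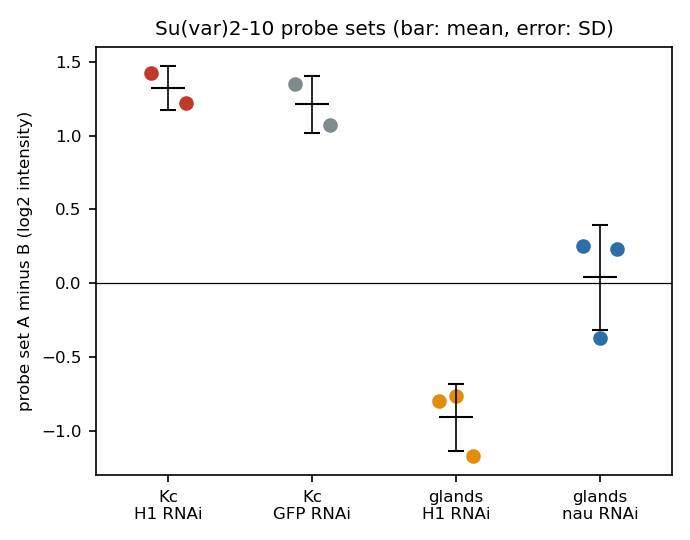
Log2 intensity of Su(var)2-10 probe set A minus probe set B (vertical axis) in each array, with the group mean as a bar and the SD as the error. The glands labelled H1 RNAi lie between -1.17 and -0.77, below the glands labelled nau RNAi, and all 4 Kc arrays lie above 1.

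In Kc cells both Su(var)2-10 probe sets kept overlapping groups. Probe set A was 9.12 and 8.99 with H1 RNAi and 9.05 and 9.01 with GFP RNAi (log2 change 0.02, 95% interval -0.41 to 0.46, adjusted p = 0.989). Probe set B was 7.69 and 7.77 with H1 RNAi and 7.71 and 7.93 with GFP RNAi (-0.09, 95% interval -0.34 to 0.17, adjusted p = 0.875).

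E(var)3-9, a zinc finger protein found as a dominant enhancer of position-effect silencing, was the flattest in glands. It had 8.85, 8.77 and 8.94 in the glands labelled H1 RNAi and 8.83, 8.75 and 8.92 in those labelled nau RNAi. The 2 sets of arrays interleaved, and the log2 change of 0.02 had a 95% interval of -0.18 to 0.22 (adjusted p = 0.882). In Kc cells it was 9.18 and 9.28 with H1 RNAi and 8.99 and 9.16 with GFP RNAi, higher in both H1 arrays without passing (0.15, 95% interval -0.09 to 0.40, adjusted p = 0.636).

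In Kc cells limma called 0 of the 9 probe sets, beside 4.11% of all probe sets. An unadjusted p under 0.05 was found for 0 of the 9, beside 2771 of all 18769 probe sets. The changes ran from -0.17 to 0.15, with a median of 0.02 beside -0.03 over all probe sets. The outermost bounds of the 95% intervals were -0.56 and 0.46. A miss of the threshold does not show equal levels, but these intervals, apart from that of JIL-1 for a fall, leave out a 2-fold change in either direction. The Kc signal of JIL-1, 4.74 to 4.88, lay near the highest control probe set (4.08). A 2-fold fall of that gene may not be measurable there. Both H1 arrays lay on 1 side of both GFP arrays for 4 of the 9 probe sets, 2 in each direction, which also holds for 54.9% of all probe sets. The 18S rRNA control signal at its 3′ end was 5.02 and 5.78 in the Kc H1 arrays and lay between 7.04 and 9.04 in the GFP arrays, and its part in these values was not tested.

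The test of the difference, gland effect minus Kc effect, was passed by 5 of the 9 probe sets, all with the lower effect in glands, where 12.5% of all probe sets were called in that direction and 25.9% in either. The difference was -1.79 for JIL-1 (adjusted p = 0.000121), -1.35 for Sirt1 (adjusted p = 6.92e-05), -1.24 for probe set A of Su(var)2-10 (adjusted p = 0.00543) and -1.07 for Hmt4-20 (adjusted p = 0.00605). For wde it was -0.62 (adjusted p = 0.0235), and this call was lost without Kc H1 array a (-0.54, adjusted p = 0.105) or Kc GFP array a (-0.53, adjusted p = 0.107). Probe set B, Su(var)3-3, HDAC1 and E(var)3-9 did not pass, with adjusted p of 0.442, 0.257, 0.831 and 0.555. The Kc signal of JIL-1 lay near the highest control probe set (4.08), which limits what its difference can measure. The same limit holds for probe set A of Su(var)2-10, by its signal in the glands labelled H1 RNAi.

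**Figure D3:**
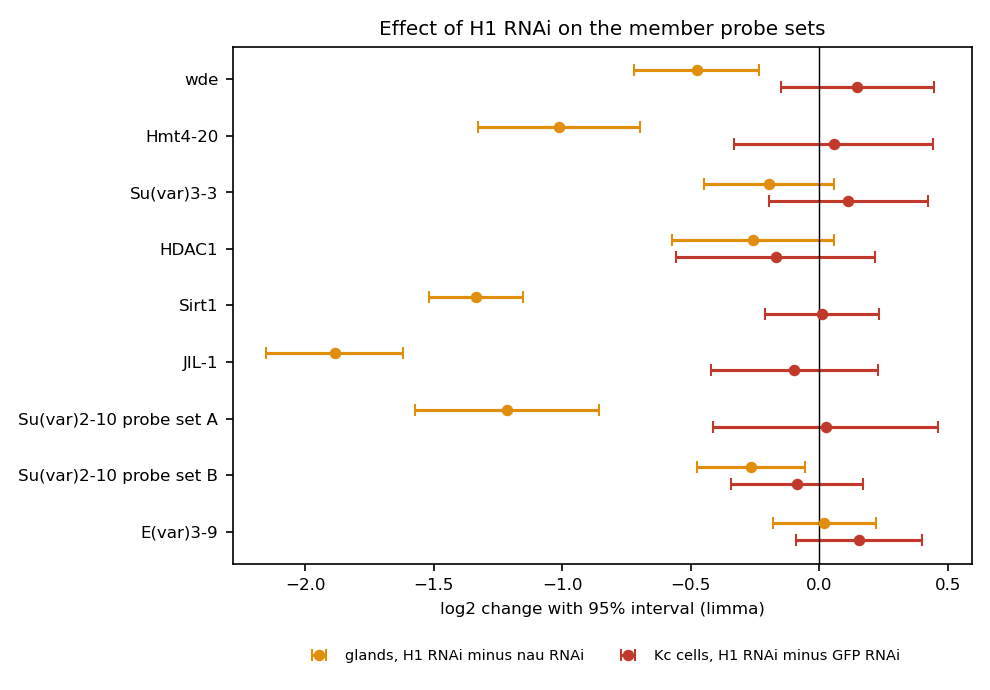
Log2 change under H1 RNAi (horizontal axis) with its 95% interval from limma for each probe set, in glands (orange, against nau RNAi) and Kc cells (red, against GFP RNAi). The gland intervals of JIL-1, Sirt1, Hmt4-20, wde and both Su(var)2-10 probe sets lie below 0, and all Kc intervals include 0.

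The members also differed between the tissue and the cell line without H1 RNAi, and in opposite directions. In the glands labelled nau RNAi, JIL-1 was 2.77 higher than in GFP-treated Kc cells on the log2 scale (6.81-fold, adjusted p = 4.96e-08), Hmt4-20 was 1.33 higher (adjusted p = 4.1e-05) and Sirt1 1.02 higher (adjusted p = 4.62e-06). Su(var)2-10 was lower in the glands by both probe sets, with -2.94 for A (adjusted p = 2.82e-07) and -1.77 for B (adjusted p = 2.32e-07). HDAC1 (-1.76, adjusted p = 4.93e-06) and Su(var)3-3 (-0.76, adjusted p = 0.000516) were lower too. E(var)3-9 (-0.24, adjusted p = 0.0695) and wde (-0.05, adjusted p = 0.771) did not pass.

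These 3 higher and 4 lower probe sets stand beside 51.2% of all probe sets called, 21.6% higher and 29.6% lower. The 2 groups differ in RNAi target as well as in cell type, and the sources used here do not say whether cells and glands were normalized together. RNA signs moved with them: 3′ minus 5′ signal was 2.77 in the glands labelled nau RNAi and 1.19 in GFP-treated Kc cells for actin. GAPDH gave 2.13 in the glands and 0.83 in the cells, and eIF-4a gave 2.17 in the glands and 0.56 in the cells. The 18S rRNA 3′ signal was 12.70 in these glands and 8.04 in these cells, and the part of either in the differences was not tested. Su(var)3-3 lost its call after quantile normalization of all arrays (-0.30, adjusted p = 0.0535), and wde was then higher in glands (0.42, adjusted p = 0.0083). E(var)3-9 was called lower with equal array medians (-0.34, adjusted p = 0.022) and without array c labelled nau RNAi (-0.29, adjusted p = 0.0483). Its difference was -0.01 after quantile normalization (adjusted p = 0.942) and -0.16 without Kc GFP array b (adjusted p = 0.382).

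JIL-1 was highest in the glands labelled nau RNAi (mean 7.62), then in those labelled H1 RNAi (5.73), in GFP-treated Kc cells (4.85) and in H1-treated Kc cells (4.75), with no overlap between neighbours. Hmt4-20 followed the same tissue order, with 8.69, 7.68, 7.41 in Kc H1 and 7.36 in Kc GFP arrays, where the Kc groups overlapped. For Sirt1 the glands labelled nau RNAi were highest (10.09) and the glands labelled H1 RNAi lowest (8.75), with the overlapping Kc groups at 9.07 and 9.06 between them.

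For the other genes every Kc mean was above every gland mean. The 2 gland groups overlapped for HDAC1, Su(var)3-3 and E(var)3-9, and the 2 Kc groups for wde and both probe sets of Su(var)2-10, while wde overlapped between GFP-treated Kc cells and the glands labelled nau RNAi.

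Set against Kc cells with the matching RNAi, the gland excess of JIL-1 was 0.98 under H1 RNAi, against 2.77 under control RNAi. For Hmt4-20 it was 0.27 under H1 RNAi, against 1.33 under control RNAi. For Sirt1 the gland level was 0.32 under the Kc level with H1 RNAi (-0.32), against 1.02 above it with control RNAi. For Su(var)2-10 probe set A, already lower in glands, the difference was -4.18 under H1 RNAi, against -2.94 under control RNAi. These differences share arrays with the tests above and restate them as levels.

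**Figure D4:**
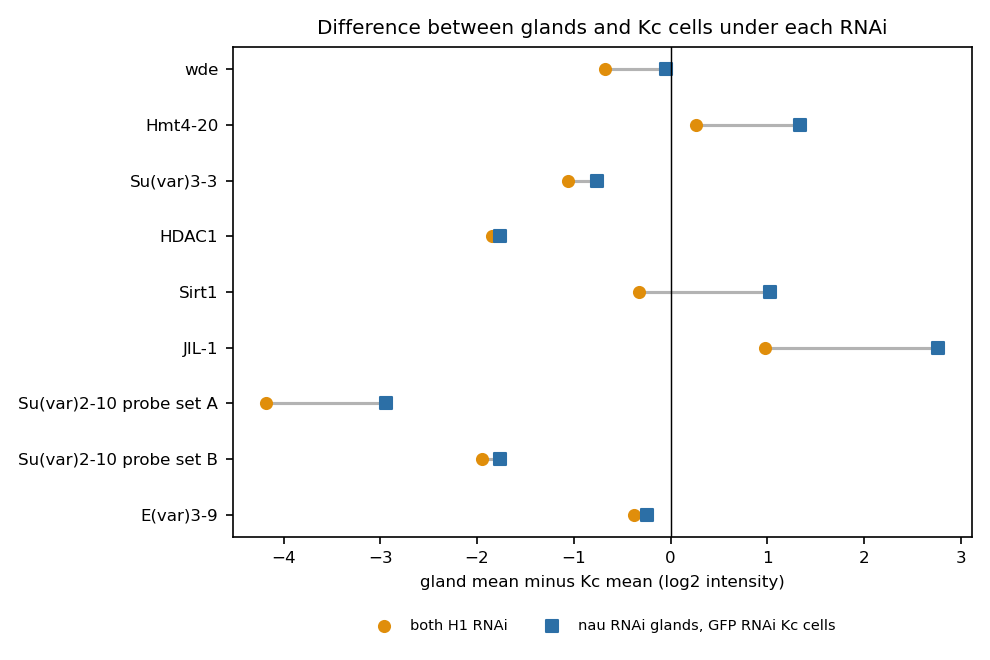
Gland mean minus Kc mean in log2 intensity (horizontal axis) for each probe set, with both under H1 RNAi (orange circles) and both under control RNAi (blue squares). The gland excess of JIL-1 and Hmt4-20 is smaller under H1 RNAi, Sirt1 crosses 0, and HDAC1, Su(var)2-10 probe set B and E(var)3-9 hardly shift.

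Other enzymes and partners of the same pathways were followed in 9 lists, of which 74 of 85 entries had a named probe set. In glands 16 of the 74 rose and 25 fell, beside 23.6% of all named genes in each direction. Their median log2 change was 0.00, beside -0.04 over all named genes. Whether the 9 probe sets differ from these lists was not tested.

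Among other histone methyltransferases 6 of 8 fell and 0 rose, with a median of -0.67. They were led by gpp (-1.44, adjusted p = 7.62e-06), the H3K79 methyltransferase, NSD (-0.99, adjusted p = 2.12e-05), an H3K36 enzyme, and trr (-0.98, adjusted p = 1.18e-05), an H3K4 enzyme that acts at enhancers. The number that fell was between 5 and 7 under the alternatives. The 3 measured genes of the list of other demethylases fell, namely Utx (-0.61, adjusted p = 0.000107), which demethylates H3K27, Kdm5 (-0.34, adjusted p = 0.0134), which demethylates H3K4, and Jarid2 (-0.36, adjusted p = 0.00265), a relative that serves as a Polycomb cofactor and not as an active demethylase. Of 7 other deacetylases 3 fell, HDAC4 (-0.98, adjusted p = 0.00121), Sirt2 (-0.74, adjusted p = 5.8e-05) and the mitochondrial Sirt4 (-0.32, adjusted p = 0.00765).

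Of 5 other genes of H3K9 methylation and its removal, 1 fell and 4 did not pass. It was the H3K9 demethylase gene Kdm3, with 5.14 ± 0.03 in glands labelled H1 RNAi and 7.16 ± 0.34 in glands labelled nau RNAi (SD, n = 3 each), a log2 change of -2.02 (adjusted p = 3.96e-06). In Kc cells its change was -0.42 (adjusted p = 0.312), and the effects differed (-1.60, adjusted p = 0.000803). Su(var)3-9, the main H3K9 methyltransferase of pericentric heterochromatin, has no probe set named for it alone here and was not analysed.

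On the binding side of the pathway, of 19 HP1 proteins and partners 5 rose and 1 fell, including HP6, HP4 (0.83, adjusted p = 3.39e-05) and Lhr (0.71, adjusted p = 0.000846), a partner of HP1. HP6 was 6.28, 6.47 and 6.85 in the glands labelled H1 RNAi, against 3.48, 3.53 and 4.01 in those labelled nau RNAi (adjusted p = 1.14e-06). The nau arrays lay at or near the control level of 3.55 and under the highest control probe set (4.08), so the fitted change of 2.86 does not measure the size of the difference there. Without array a labelled nau RNAi, 9 of the 19 rose. In the other direction, the rise of vig (0.43, adjusted p = 0.0413) lost its call after quantile normalization, with equal array medians and with glands fitted alone. The gene of HP1a itself had a change of 0.25 that did not pass (adjusted p = 0.101). In Kc cells 15 of the 74 genes had an unadjusted p below 0.05, beside 2771 of all 18769 probe sets. HP1D3csd, a relative with an HP1-type dimerization domain, was the single call among them (0.93, adjusted p = 0.0208), beside 5.04% of all named genes. Its call was lost without any 1 of the 4 Kc arrays (adjusted p up to 0.162).

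**Figure D5:**
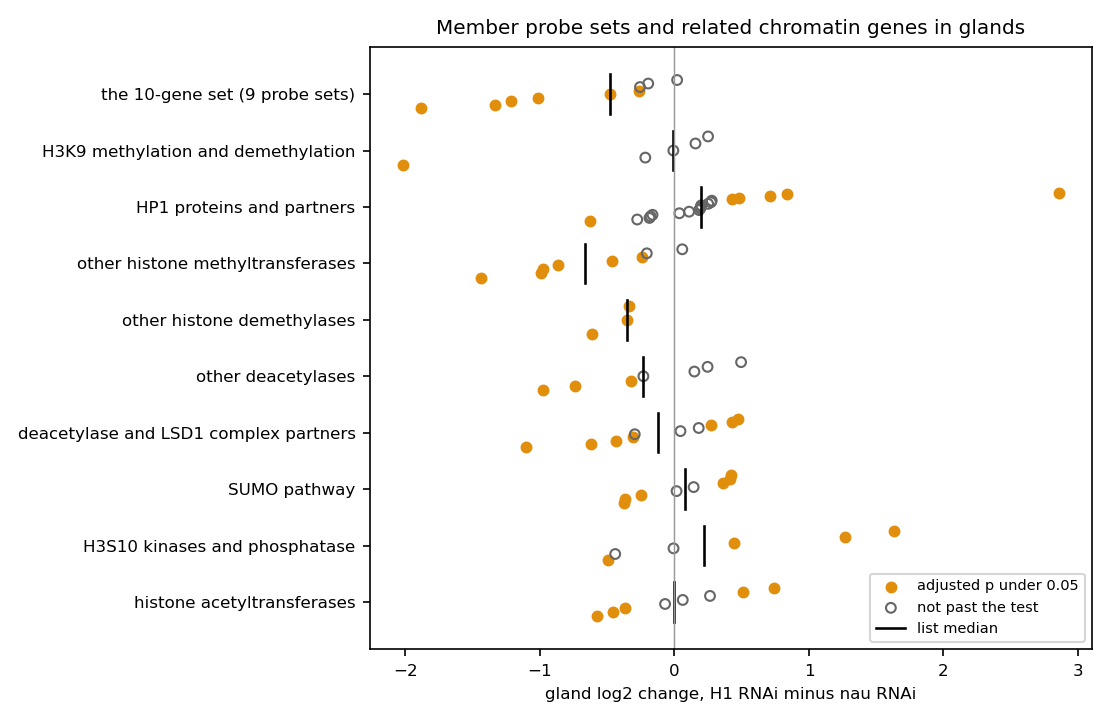
Gland log2 change, glands labelled H1 RNAi minus glands labelled nau RNAi (horizontal axis), for the 9 probe sets (top row) and the measured genes of 9 related lists, filled where the adjusted p was under 0.05, with a bar at each list's median. The top row and the other methyltransferases have medians of -0.48 and -0.67, whereas the HP1 list (0.20) and the H3S10 list (0.22) lie above 0.

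In the list of H3S10 kinases and phosphatase 3 of 6 genes rose and 1 fell. The mitotic H3S10 kinase gene aurB rose by 1.27 (adjusted p = 0.00137) and ball, a histone kinase that acts on H2A, by 1.63 (adjusted p = 8e-06), while the PP1 phosphatase gene flw fell by 0.49 (adjusted p = 0.000428). The aurB signal was 5.57, 4.64 and 5.07 under H1 RNAi, against 4.19, 3.67 and 3.63 under nau RNAi, where the level was close to that of the control probe sets. Of 10 partners of deacetylase and LSD1 complexes 3 rose and 4 fell, with CG14220, the Sds3 relative of the Sin3 complex, at -1.10 (adjusted p = 5.46e-05), the NuRD subunit gene MTA1-like at -0.62 (adjusted p = 0.00054) and Sap30 at 0.47 (adjusted p = 0.013).

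The SUMO pathway around Su(var)2-10 was split, with 3 of 8 genes higher and 3 lower. They included Uba2 (0.42, adjusted p = 0.00751) of the activating enzyme, dgrn (0.41, adjusted p = 0.0174), a ubiquitin ligase that recognises SUMO, and the SUMO protease gene velo (-0.37, adjusted p = 0.0271). The call of dgrn was lost without array a or b labelled H1 RNAi and after quantile normalization (adjusted p up to 0.0835). That of velo was lost with glands fitted alone and without array b or c labelled H1 RNAi or array a or c labelled nau RNAi (adjusted p up to 0.0848). The falls of Ulp1 (-0.25, adjusted p = 0.0402) and cerv (-0.37, adjusted p = 0.0421) were weak too. Both lost their call with glands fitted alone and without array a or b labelled H1 RNAi, among other alternatives. The rises of Sumo (0.36, adjusted p = 0.0143) and Uba2 kept their call in all alternatives. Of 8 histone acetyltransferase genes 2 rose, Hat1 (0.74, adjusted p = 0.000341) and Taf1 (0.51, adjusted p = 0.00348), and 3 fell, led by nej (-0.57, adjusted p = 0.000151), which encodes CBP.

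Markers of other cell types were compared between the gland groups as well, where 23.6% of all named genes were called in each direction. In a whole organ, fewer cells of a type and less RNA per cell cannot be told apart. Of 7 markers of dividing cells 7 rose, and the log2 of their summed intensity was 8.42 to 9.11 in the glands labelled H1 RNAi and 6.77 to 7.32 in those labelled nau RNAi. In the Kc arrays that sum was 12.57 to 12.69 with H1 RNAi and 12.65 to 12.67 with GFP RNAi. In the glands labelled nau RNAi CycB3 was at background (3.33). There thr (3.92), fzy (3.96) and borr (3.99) lay under the highest control probe set (4.08). The gland call of CycB was lost under 5 alternatives (adjusted p up to 0.13). Of 12 haemocyte markers 9 rose and 1 fell (sums 13.10 to 13.22 under H1 RNAi and 12.40 to 12.65 under nau RNAi). The crystal cell gene lz was at background in both gland groups. Of the same list, PPO1 (2.78, adjusted p = 2.25e-06) and PPO2 (1.23, adjusted p = 0.00018) were among those that rose. The gene that fell was Pxn (-1.15, adjusted p = 0.00172). The rise of NimC1 (1.09, adjusted p = 0.0298) lost its call after quantile normalization and with glands fitted alone, among other alternatives.

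Fat body markers were abundant in the glands of both labels, and none of the 5 was at background. Their sums were 15.81 to 15.86 under H1 RNAi and 15.63 to 15.72 under nau RNAi. Of the 5, 3 rose and 1 fell. The rise of apolpp (0.22, adjusted p = 0.0463) lost its call after quantile normalization and with glands fitted alone, among other alternatives. Of 13 salivary gland markers 10 fell and 0 rose, with sums of 15.35 to 15.62 and 17.02 to 17.06, and none was at background in either gland group. Among the remaining lists 3 of 5 muscle markers rose, 5 of 9 markers of neurons and glia rose with 1 lower, 2 of 8 germline markers rose and 1 fell, 1 of 6 imaginal markers rose and 1 fell, and 0 of 6 tracheal and epidermal markers passed in limma, with 1 at an unadjusted p under 0.05. Arrays a, b and c labelled H1 RNAi were unequal for some of these markers. Among those of neurons and glia, elav was 7.78, 5.41 and 5.68 and Appl 7.38, 5.13 and 5.42, with array a apart. For cac they were even, at 5.74, 5.56 and 5.86. The part of these cell types in the fall of the 5 genes was not tested.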

How the data were processed

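The 10 arrays were Affymetrix expression arrays hybridised with total RNA. The deposited values are 1 linear intensity per probe set and array, made with RMA per the submitters' processing notes, with no version given. RMA subtracts background, sets the arrays to a common distribution and summarises probes, which can narrow real differences in overall level. Which arrays were processed together is not given in the sources used here. The deposited intensities were taken to log2.

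Of 18952 probe sets 183 controls were left out. Platform annotation, matched to RefSeq by gene number, gave 13647 probe sets 1 symbol, 402 several and 4720 none. All 10 arrays were fitted in limma 3.58.1 (R 4.3.3) with 1 mean per group, and p-values were adjusted over 18769 probe sets by Benjamini-Hochberg, with a call at 0.05. The number of arrays limits the precision. The fit shares 1 spread per probe set over all 10 arrays, although replicates varied less in Kc cells. The pooled SD was 0.117 (H1 RNAi) and 0.114 (GFP RNAi) there, and 0.263 (H1 RNAi) and 0.238 (nau RNAi) in glands.

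Genes and lists were chosen with earlier results of these data known. Every probe set of the 10 genes is given. Related genes are named where called in Kc cells and, in glands, for up to 3 called genes per list with the largest absolute change, with Su(var)3-9 and the gene of HP1a always. A gene with several probe sets stands by the one with the highest mean. Alternatives covered scaling, the background filter, the prior, a replicate block, each system fitted alone and each array left out.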

Additional observations from a re-analysis of the deposited data

Results flagged for a closer look

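The effect of H1 RNAi differed between salivary glands and Kc cells by limma's test of the gland effect minus the Kc effect for 5 of the 9 probe sets. Of all probe sets, 25.9% were called for this difference, 12.5% in the lower direction. The difference on the log2 scale was -1.79 for JIL-1, -1.35 for Sirt1, -1.24 for Su(var)2-10 probe set A, -1.07 for Hmt4-20 and -0.62 for wde. The wde call was lost without Kc H1 array a (adjusted p = 0.105) or Kc GFP array a (adjusted p = 0.107), and Su(var)2-10 probe set B did not pass (adjusted p = 0.442). All 3 glands labelled H1 RNAi were below all 3 labelled nau RNAi for each of the 5, beside 49.0% of all probe sets with separate gland groups in either direction. This restates arrays that the test had used. The Kc signal of JIL-1 was near the highest control probe set (4.08), as was that of Su(var)2-10 probe set A in the glands labelled H1 RNAi. Groups of 2 and 3 arrays are too small for a test of single outlying arrays.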

How the results depend on the processing

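In glands, wde, Hmt4-20, Sirt1, JIL-1 and Su(var)2-10 probe set A stayed called lower in limma under all 16 alternatives, with changes of -0.61 to -0.40, -1.15 to -0.87, -1.39 to -1.27, -2.22 to -1.79 and -1.67 to -1.09. Probe set B lost its call in 10 of 16, also with a trended robust prior (adjusted p = 0.0966) and with glands fitted alone (adjusted p = 0.0755). Its difference between systems was called after quantile normalization (-0.62, adjusted p = 0.0141). Quantile normalization reversed wde between glands and Kc cells, to 0.42 against -0.05, and the cause was not tested. With arrays left out in turn, the set had 5 to 6 calls in glands, 0 to 0 in Kc cells, 4 to 5 for the difference and 7 to 8 between glands and Kc cells. Over all probe sets the Kc count was 771 and ranged from 274 to 916, with 316 without Kc H1 array a, 274 without b, 289 without Kc GFP array a and 284 without b, which leave 1 array in a group, assumed to vary like the others. Kc cells fitted alone gave 2152. Arrays with the same letter deviated little together (r = -0.0032 in Kc cells and -0.0722, 0.0892 and 0.0655 in glands). Different letters gave r between -0.1374 and 0.0692 in glands. The letters were not treated as a pairing, though such values cannot exclude one. The replicate block gave 447 calls in Kc cells and ended the gland call of probe set B (adjusted p = 0.0825) and the Kc call of HP1D3csd. It changed no other call of the 9 probe sets. Probe sets near the control level of 3.55 have little signal over background, which limits what can be measured for them.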
